A study of Mus musculus with 21 samples.

Results

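Mammary organoids of wild-type (WT) mice were compared between day 28 of neuT activation and day 0, before it. The comparison was set by the labels: all 3 original WT libraries of day 28 against all 3 of day 0, so 6 of the 21 libraries of the study, described across every gene. neuT is an activated rat form of Erbb2, the receptor tyrosine kinase gene also called HER2, and acts as an oncogene in mammary epithelium. The study sampled primary organoids of 2 genotypes, WT and Mre11 ATLD1/ATLD1, on 3 days of neuT activation (0, 14 and 28), with 3 libraries per group. ATLD1 is a mutant allele of Mre11, the gene of a nuclease that binds DNA double-strand breaks, and ATLD is used below for this genotype. Replicate 1 of every WT time point was run a second time in the batch of the ATLD libraries. The labels call the cells primary mammary epithelia. They give no strain, age or sex of the mice and no promoter or agent that switched neuT on. They do not say that replicates came from separate animals or cultures, so the p-values measure the spread between these libraries, which may be technical. The groups hold no WT culture of 28 days without neuT, so neuT and time in culture cannot be told apart.

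The mammary epithelium has an inner luminal layer, whose progenitors make milk and defence proteins and whose mature cells sense hormones, and an outer basal layer of contractile myoepithelial cells. Luminal cells are known by keratins 8, 18 and 19 and basal cells by keratins 5 and 14. ERBB2 signals through the RAS-ERK and PI3K pathways, and in the mouse gland neuT gives rise to tumours of luminal character.

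The 3 day 0 libraries held 43114303, 30905703 and 43301837 counts and the 3 day 28 libraries 39992235, 32548362 and 43663874. In a principal component analysis of the 6 libraries the first component held 74.2% of the variance and separated the days, and the second held 13.5% and set replicate 2 of day 28 apart. That library ran low in transcripts rich in G and C. Over the tenth of genes with the highest GC content, at least 57.5%, its median deviation was -0.50 on the log2 scale, against 0.31 and 0.35 in the other day 28 libraries and -0.24 to 0.08 at day 0. Levels below are read counts scaled to library size with TMM factors, in CPM, in the order replicate 1, 2 and 3. Changes are log2 fold changes of day 28 against day 0 ± SE from edgeR's quasi-likelihood test. A gene is said to have risen or fallen where its p, adjusted by the Benjamini-Hochberg method over all genes tested, was under 0.05. The labelled cell type was met by its markers: Epcam, the epithelial adhesion gene, stood at 604, 662 and 639 CPM at day 0 and 601, 558 and 589.8 CPM at day 28. Krt8, a luminal keratin, stood at 516, 638 and 637 CPM at day 0 and 349, 187 and 337 CPM at day 28. In bulk RNA, fewer cells of a type and less RNA per cell cannot be told apart.

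Of 18684 genes tested, 2303 rose and 2318 fell, 4621 in all or 24.7%, with 12.3% higher and 12.4% lower. The shares of 12.3% and 12.4% are those to set beside each count of list members below. The median change of all tested genes was 0.02. At least 2-fold changes were met by 1223 of the genes that rose and 1295 of those that fell, and at least 8-fold changes by 156 and 292. The 3 and 3 library values did not overlap for 4575 of the called genes, and for 7860 (42.1%) of all genes tested. In the repeat runs of replicate 1, which are the same cultures and so no independent support, 2285 of the 2303 and 2296 of the 2318 moved the same way. The count was 4508 without replicate 2 of day 28, and 8400 when the compared libraries were fitted by themselves without it, a fit added after the data were seen.

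**Figure D1:**
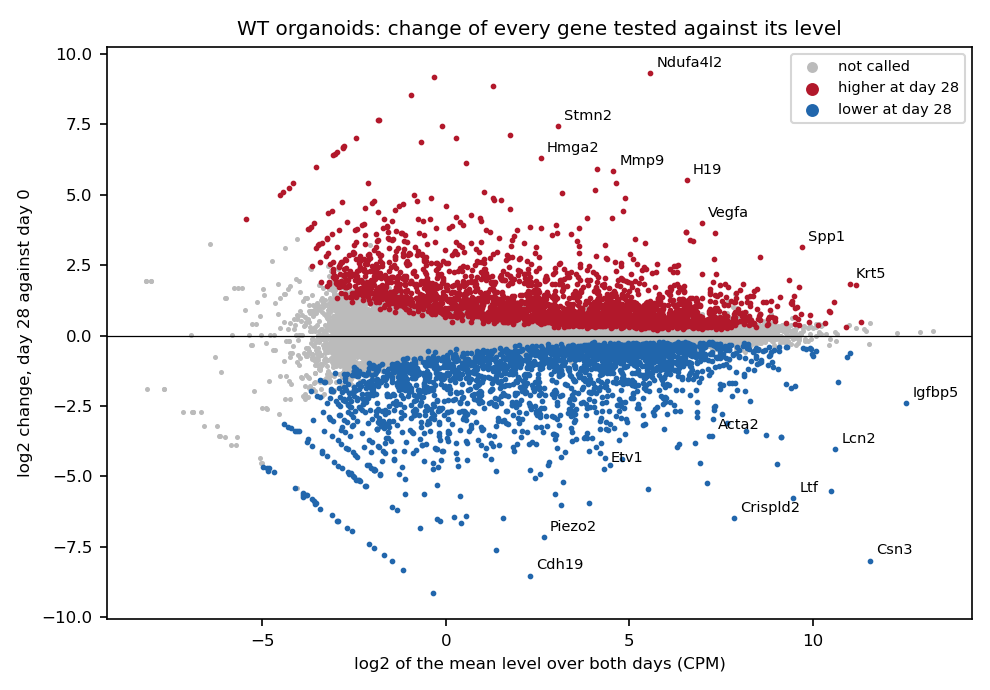
The log2 change at day 28 against day 0 (vertical) is plotted for each tested gene with any read on either day against the log2 of its mean level in CPM (horizontal), with genes that rose in red, genes that fell in blue and others in grey. Csn3 (-8.00) and Igfbp5 (-2.40) are the abundant genes low on the right, and Ndufa4l2 (9.33) is the high point at the top.

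Most genes of the luminal progenitor and of milk and defence secretion fell. Csn3 encodes kappa-casein, the milk protein that stabilises casein micelles (GRCm38 chromosome 5, 87925579 to 87932665). It stood at 6612, 5675 and 5813 CPM at day 0 and 21.3, 24.4 and 25.1 CPM at day 28, the days lying far apart (-8.00 ± 0.25, adjusted p = 7.23e-13). Ltf, the iron-binding defence protein lactoferrin, stood at 1487, 1400 and 1272 CPM at day 0 and 28.1, 22.6 and 25.2 CPM at day 28 (-5.77 ± 0.15, adjusted p = 2.52e-13). Lcn2, lipocalin 2, which binds bacterial siderophores, stood at 2653, 2960 and 3223 CPM at day 0 and 206, 144 and 189 CPM at day 28 (-4.03 ± 0.17, adjusted p = 1.8e-11). The repeat runs of replicate 1 gave 6245 and 26.6 CPM of Csn3. Chil1, a chitinase-like secreted protein, went from 2610, 2728 and 3156 CPM to 69.1, 54.8 and 62.9 CPM.

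Of 20 luminal progenitor markers, 19 fell and 1 rose, with a median change of -2.14, against 12.4% of all genes lower. Elf5, a transcription factor of the alveolar luminal fate, stood at 277, 266 and 263 CPM at day 0 and 24.2, 22.1 and 21 CPM at day 28 (-3.58 on the log2 scale). Kit, the stem cell factor receptor, stood at 271, 285 and 272 CPM at day 0 and 37.8, 34.7 and 33.5 CPM at day 28 (-2.97). The member that rose was Tspan8, a tetraspanin (0.44), whose call was lost without replicate 2 of day 28. The summed level of the markers was 16320, 15990 and 16290 CPM at day 0 and 2630, 2073 and 2382 CPM at day 28. Of 14 milk genes tested 2 rose and 12 fell, with a median of -3.35. The alpha-casein genes Csn1s1 (-4.35) and Csn1s2a (-4.86) and Lalba (-3.17), a subunit of lactose synthase, were among those that fell. Csn1s2b had 62 counts in the 3 day 0 libraries and 0 at day 28, at least 20.3-fold lower against a floor of 3 counts over the group. Wap, whey acidic protein, had 43 counts and 1 (42.3-fold, 95% counting interval 7.19 to 1707). Such intervals and floors cover counting error only. Spp1, osteopontin, and Lpo, lactoperoxidase, went the other way: Spp1 stood at 157, 158 and 198 CPM at day 0 and 1422, 1610 and 1479 CPM at day 28 (3.14 ± 0.15, adjusted p = 4.82e-11).

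Secreted defence proteins fell in 11 of 17 tested members and rose in 1, Lpo, with a median of -1.46. Defb1, a beta-defensin, stood at 14.5, 13.7 and 11.9 CPM at day 0 and 0.646, 0.626 and 0.398 CPM at day 28 (-4.59). Pigr, the receptor that carries polymeric immunoglobulin across epithelium, stood at 35.7, 32 and 36.4 CPM at day 0 and 2.19, 1.8 and 1.76 CPM at day 28 (-4.18). Saa2, an acute-phase serum amyloid, moved from 4.02, 4.27 and 5.22 CPM to 0.208, 0.218 and 0.21 CPM. The luminal progenitor, milk and defence lists share members, Csn3, Ltf and Lcn2 among them.

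General luminal genes fell in 6 of 12 and rose in 0, with a median of -0.96. Krt18 stood at 681, 771 and 768 CPM at day 0 and 369, 261 and 349 CPM at day 28 (-1.18 ± 0.17, adjusted p = 3.25e-05). Krt7, a simple-epithelium keratin, stood at 85.4, 96.3 and 104 CPM at day 0 and 26, 15.2 and 23 CPM at day 28 (-2.15). Markers of hormone-sensing cells moved in both directions, with 8 higher, 6 lower and a median of -0.03 over 19. Prlr, the prolactin receptor, fell from 206, 202 and 196 CPM to 27, 32.4 and 22.2 CPM. Esr1, the oestrogen receptor, fell by 0.62 on the log2 scale. Tnfsf11, which encodes the paracrine signal RANKL, rose (1.64). Areg, an EGF-like ligand that acts downstream of the oestrogen receptor, rose too (0.80). The summed level of this list was near the same on both days, 918, 922 and 923 CPM at day 0 and 907, 900.4 and 859.7 CPM at day 28.

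**Figure D2:**
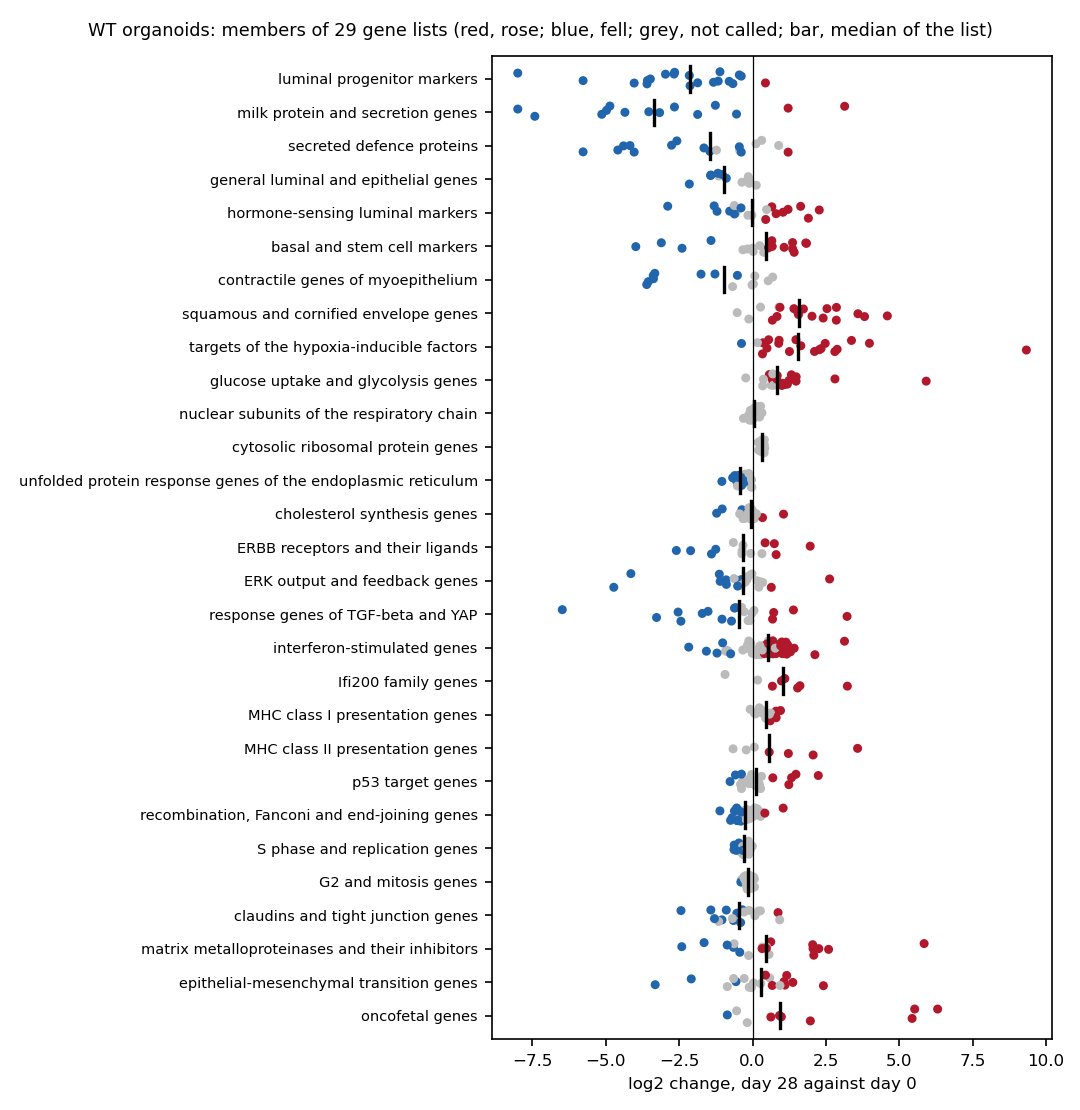
The log2 change at day 28 against day 0 (horizontal) is shown for each tested member of 29 gene lists (vertical), red where it rose, blue where it fell and grey where it was not called, with a black bar at the median of the list. Milk genes (median -3.35) and luminal progenitor markers (-2.14) lie to the left, and squamous genes (1.57) and hypoxia targets (1.56) to the right.

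The basal keratins Krt5 and Krt14 rose, and contractile genes of myoepithelium fell. Krt14 stood at 834, 1119 and 1153 CPM at day 0 and 4431, 2066 and 4406 CPM at day 28 (1.81 ± 0.34, adjusted p = 0.000634). Krt5 stood at 736, 965 and 1009 CPM at day 0 and 3786, 2159 and 3732 CPM at day 28 (1.84 ± 0.26, adjusted p = 2.83e-05). Both were lower in replicate 2 of day 28, the library low in GC-rich transcripts, than in replicates 1 and 3. The repeat run of replicate 1 gave 4021 CPM of Krt5. Of 20 basal and stem cell markers 9 rose and 4 fell (median 0.45). Trp63, the p53-family transcription factor of basal epithelium (0.66), Snai2 (0.67) and Vim (1.07) rose. Sox10, a transcription factor of neural crest and of mammary progenitors, fell from 121, 159 and 165 CPM to 10.5, 5.58 and 12.1 CPM (-3.98 ± 0.30, adjusted p = 2.17e-08). Igfbp5, an insulin-like growth factor binding protein and one of the most abundant transcripts of day 0, stood at 9466, 9924 and 10700 CPM at day 0 and 1960, 1843 and 1885 CPM at day 28 (-2.40 ± 0.20, adjusted p = 5.86e-08).

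Smooth muscle genes of myoepithelium fell in 8 of 14 and rose in 0, with a median of -0.98, and 6 were not called. The summed level of the list was 1405, 1472 and 1457 CPM at day 0 and 1199, 1072 and 1181 CPM at day 28. Acta2, smooth muscle actin, stood at 270.3, 295 and 276 CPM at day 0 and 26.4, 20.1 and 25.2 CPM at day 28 (-3.55 ± 0.16, adjusted p = 2.43e-11). Tagln, transgelin, stood at 22.6, 26.4 and 28.3 CPM at day 0 and 2.19, 1.96 and 2.18 CPM at day 28 (-3.61). Cnn1, calponin, stood at 5.68, 7.74 and 6.58 CPM at day 0 and 0.784, 0.49 and 0.629 CPM at day 28 (-3.38). For each of the 3 genes every day 28 library lay below every day 0 library. Oxtr, the oxytocin receptor through which milk ejection is triggered, fell by 0.52 on the log2 scale.

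Genes of squamous differentiation and the cornified envelope rose in 15 of 20 tested members and fell in 0, against 12.3% of all genes higher, with a median of 1.57. Krt16, a keratin of stressed and stratified epithelium, stood at 1.43, 1.58 and 1.87 CPM at day 0 and 22.8, 13.2 and 22.9 CPM at day 28 (3.59 ± 0.24, adjusted p = 4.9e-09). Sprr1b, a structural protein of the envelope, stood at 0.021, 0.029 and 0.042 CPM at day 0 and 0.715, 0.653 and 1.03 CPM at day 28. Ivl, involucrin, another one, stood at 0.062, 0.058 and 0.084 CPM at day 0 and 0.415, 0.599 and 0.545 CPM at day 28. Both were near or below 1 CPM also after they rose. Of the 25 listed, 5 did not pass the filter on low counts. The summed level of the list was 298, 297 and 297 CPM at day 0 and 805, 833 and 795 CPM at day 28.

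Targets of the hypoxia-inducible factors, transcription factors that accumulate when oxygen is low, rose in 18 of 20 members. Vegfa, the main growth factor for blood vessels (chromosome 17, 46016993 to 46032369), stood at 14, 15.6 and 15.5 CPM at day 0 and 272, 191 and 248 CPM at day 28 (3.98 ± 0.16, adjusted p = 8.61e-12). The repeat runs gave 18.8 and 275 CPM. Ndufa4l2, an inhibitor of respiratory complex I, was near 0 at day 0 (0.062, 0.029 and 0.316 CPM) and stood at 118, 57.2 and 109 CPM at day 28 (9.33 ± 0.75, adjusted p = 4.02e-08). Angptl4, a secreted inhibitor of lipoprotein lipase, moved from 15.9, 19.4 and 21.2 CPM to 215, 159 and 210.0 CPM. Bnip3, a mitophagy receptor, moved from 7.36, 8.39 and 7.7 CPM to 58.1, 65 and 49.4 CPM. The list had a median of 1.56, and 1 member fell, Stc2 (-0.38). Car9, the tumour-associated carbonic anhydrase, was among the risers (11.7, 13.7 and 15.2 CPM at day 0 and 72.7, 59.3 and 72.4 CPM at day 28). So were the factors' own hydroxylases Egln1 (0.90) and Egln3 (0.34).

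Glucose uptake and glycolysis genes rose in 15 of 21 and fell in 0 (median 0.84). Slc16a3, the lactate exporter MCT4, stood at 0.456, 0.585 and 0.652 CPM at day 0 and 42.2, 19.3 and 40.7 CPM at day 28 (5.91 ± 0.56, adjusted p = 2.94e-07). Pfkp, the platelet form of phosphofructokinase, stood at 91.3, 95.7 and 97.5 CPM at day 0 and 719.5, 618 and 652 CPM at day 28 (2.81 ± 0.12, adjusted p = 1.07e-11). Pgk1, phosphoglycerate kinase, stood at 80.2, 75.7 and 75.7 CPM at day 0 and 218, 232 and 199 CPM at day 28 (1.49). Pkm, pyruvate kinase, rose by 0.83 on the log2 scale. Its call was lost without replicate 1 of day 0 (adjusted p = 0.0859), replicate 1 of day 28 (0.0828) or replicate 3 of day 28 (0.0881). Among 25 nuclear subunits of the respiratory chain, edgeR and DESeq2 each called 0, with 1 at an unadjusted p under 0.05 in edgeR and changes from -0.31 to 0.32. Among 9 mitochondrially encoded transcripts tested both tools called 0, and 0 had an unadjusted p under 0.05. Their changes ran from -2.71 to 0.27 (median 0.12), and 4 more of the 13 listed did not pass the filter on low counts. Without replicate 2 of day 28, 1 gene of each of these lists was called. Citric acid cycle enzymes gave 1 higher and 1 lower of 15, and 1 in all without any one of the 6 libraries.

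Promoter windows are printed for the 3 targets that rose the most among those with a window that holds the hypoxia response core. The factors are known to bind at this core. Of the 18 targets that rose, 13 had a window, and 11 of these held the core. The window of Vegfa is shown as that of a strong riser without it. The core was taken as ACGTG or GCGTG. It was read on both strands, so that CACGT and CACGC count as well, and overlapping matches are counted each. Windows run from 250 bases before to 50 after the gene's start, in RefSeq on GRCm38.p6, and were in the table for 12106 of the 18674 gene symbols tested. Capitals mark the core.
Bnip3 (chr7:138909457-138909756, minus strand): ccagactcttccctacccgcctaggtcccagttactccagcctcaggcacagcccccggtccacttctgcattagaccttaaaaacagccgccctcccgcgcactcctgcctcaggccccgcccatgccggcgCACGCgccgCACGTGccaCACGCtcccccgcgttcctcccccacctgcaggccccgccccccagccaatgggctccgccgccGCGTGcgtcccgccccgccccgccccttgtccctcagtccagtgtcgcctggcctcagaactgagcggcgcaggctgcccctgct
Ankrd37 (chr8:45999801-46000100, minus strand): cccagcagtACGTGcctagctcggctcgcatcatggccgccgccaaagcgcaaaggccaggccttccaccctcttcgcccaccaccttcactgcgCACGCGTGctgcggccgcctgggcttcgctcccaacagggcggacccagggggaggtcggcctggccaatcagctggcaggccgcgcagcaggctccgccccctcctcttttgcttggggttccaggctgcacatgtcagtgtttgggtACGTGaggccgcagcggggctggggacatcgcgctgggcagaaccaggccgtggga
P4ha1 (chr10:59323046-59323345, plus strand): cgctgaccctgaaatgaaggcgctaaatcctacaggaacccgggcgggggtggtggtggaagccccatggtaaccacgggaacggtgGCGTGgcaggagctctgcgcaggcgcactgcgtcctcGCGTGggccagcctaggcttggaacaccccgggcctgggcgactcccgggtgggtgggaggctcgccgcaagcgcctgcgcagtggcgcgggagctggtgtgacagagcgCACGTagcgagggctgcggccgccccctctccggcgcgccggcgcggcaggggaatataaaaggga
Vegfa (chr17:46032328-46032627, minus strand): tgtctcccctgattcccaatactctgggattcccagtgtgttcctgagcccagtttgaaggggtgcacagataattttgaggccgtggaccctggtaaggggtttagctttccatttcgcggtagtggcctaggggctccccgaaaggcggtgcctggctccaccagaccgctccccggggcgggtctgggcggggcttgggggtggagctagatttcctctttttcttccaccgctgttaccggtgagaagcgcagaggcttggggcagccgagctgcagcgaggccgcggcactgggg
Bnip3 holds 5 matches, Ankrd37 4 and P4ha1, a subunit of the collagen prolyl hydroxylase, 3. Ankrd37 (2.80) and P4ha1 (2.47) rose together with Bnip3 (2.88). The core is common: it was in 60.5% of the windows of all tested genes, 56.3% of those of genes that rose and 56.1% of those of genes that fell. It was in 12 of 14 windows (85.7%) of the hypoxia list and 14 of 20 (70.0%) of the glycolysis list. A match is a description of letters and not a bound site, and the window of Vegfa holds no match in these 300 bases.

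The unfolded protein response genes of the endoplasmic reticulum fell in 14 of 20 members and rose in 0, with a median of -0.44. Hsp90b1, the chaperone GRP94, stood at 1386, 1271 and 1235 CPM at day 0 and 828, 1032 and 812 CPM at day 28. Hspa5, the chaperone BiP (-0.48), and Xbp1, the transcription factor of the response (-0.46), were among those that fell. Sdf2l1, a co-chaperone, fell the furthest of this list (29.3, 28.6 and 29.2 CPM at day 0 and 16.4, 11.8 and 13.9 CPM at day 28, -1.05 ± 0.16, adjusted p = 9.85e-05). The count of members called was 9 without replicate 1 of day 0, replicate 1 of day 28 or replicate 3 of day 28. Targets of the integrated stress response and of NRF2 moved both ways: 3 rose and 5 fell of 19, and 6 rose and 5 fell of 19. Slc7a11, the cystine transporter, rose (2.38, 2.1 and 2.08 CPM at day 0 and 5.4, 6.24 and 6.18 CPM at day 28), and Atf4 fell (-0.31). Gsr, glutathione reductase, fell from 401, 408 and 394 CPM to 156, 154 and 155 CPM. Fatty acid synthesis genes fell in 7 of 19 and rose in 1, a total of 8 that was 5 without replicate 1 or 3 of day 0. Cholesterol synthesis gave 2 higher and 3 lower of 22, a total of 5 that was 3 without replicate 3 of day 0 or replicate 2 of day 28. Ribosomal protein genes lay between 0.20 and 0.41 for all 25, and 1, Rpl4, was called. That call was lost without any one of 5 of the 6 libraries, replicate 2 of day 28 being the exception.

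Erbb2 itself stood at 77.3, 91.2 and 98.9 CPM at day 0 and 127, 74.8 and 132 CPM at day 28 and was not called (0.32 ± 0.26, adjusted p = 0.444). The ranges of the 2 days overlapped, with replicate 2 of day 28 the lowest of the 6 libraries. The count table has no separate entry for the rat transgene, and whether reads of neuT were assigned to mouse Erbb2 was not tested. Of 14 receptors and ligands of the family, 4 rose and 4 fell. The ligand Ereg stood at 3.46, 3.71 and 3.41 CPM at day 0 and 13.3, 16.3 and 11.6 CPM at day 28, and Areg, Tgfa (0.74) and Hbegf (0.43) rose too. Nrg2, a neuregulin, stood at 18.6, 19.8 and 21.4 CPM at day 0 and 3.94, 2.53 and 3.38 CPM at day 28. Epgn, Btc and the receptor Erbb4 fell as well, the last from below 1 CPM.

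Readouts of ERK, the kinase downstream of RAS, gave 8 lower and 2 higher of 20 (median -0.32), against 12.4% and 12.3% of all genes. The other 10 were not called. The list's summed level averaged 2325 CPM at day 0 and 2089 CPM at day 28. Its 2 furthest falls were those of Etv1 and Spry4. Etv1, an ETS transcription factor, stood at 39.1, 35.2 and 40.6 CPM at day 0 and 1.31, 1.55 and 1.47 CPM at day 28 (-4.73 ± 0.19, adjusted p = 9.6e-12). Spry4, a feedback inhibitor of receptor signalling, stood at 16.8, 18.1 and 19.3 CPM at day 0 and 1.04, 0.844 and 1.15 CPM at day 28 (-4.15 ± 0.18, adjusted p = 1.8e-11). Both days lay wholly apart for these 2 genes. Fosl1, an AP-1 subunit, rose (2.62) at levels below 1 CPM, a call lost without replicate 1 or 3 of either day, with adjusted p from 0.0846 to 0.12. Among immediate early genes 4 rose and 4 fell of 20. Klf4, a transcription factor of epithelial differentiation, rose (13.5, 11 and 14.8 CPM at day 0 and 51.6, 42.5 and 52.9 CPM at day 28). Ptgs2, cyclooxygenase 2, fell (65.5, 57.9 and 63.3 CPM at day 0 and 23.4, 24.6 and 18.2 CPM at day 28).

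In the TGF-beta and YAP list 10 genes fell and 4 rose of 20. Tgfb2, a TGF-beta ligand, stood at 47.2, 43.8 and 40.5 CPM at day 0 and 4.31, 4.98 and 4.34 CPM at day 28. Ltbp1, which tethers latent TGF-beta, and the ID genes Id1 (-1.52), Id2 (-1.04) and Id3 (-2.44) fell too. Ankrd1, a YAP target, moved from 5.95, 5.7 and 5.83 CPM to 0.092, 0 and 0.084 CPM (-6.48 ± 0.32, adjusted p = 8.1e-11). The WNT list gave 5 higher and 8 lower of 19. Wnt10a rose (7.57, 8.88 and 8.77 CPM at day 0 and 47.9, 31.3 and 44.6 CPM at day 28). Nkd1, an inhibitor of the pathway, fell (2.16, 2.54 and 1.94 CPM at day 0 and 0.346, 0.272 and 0.377 CPM at day 28). Of 16 NOTCH genes 1 rose, the ligand Jag1, and 4 fell, among them the ligand Dll4 and the target Hey2. Without replicate 2 of day 28, 3 NOTCH genes rose and 3 fell. For the lists of this paragraph the shares to compare with are 12.3% higher and 12.4% lower of all genes.

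**Figure D3:**
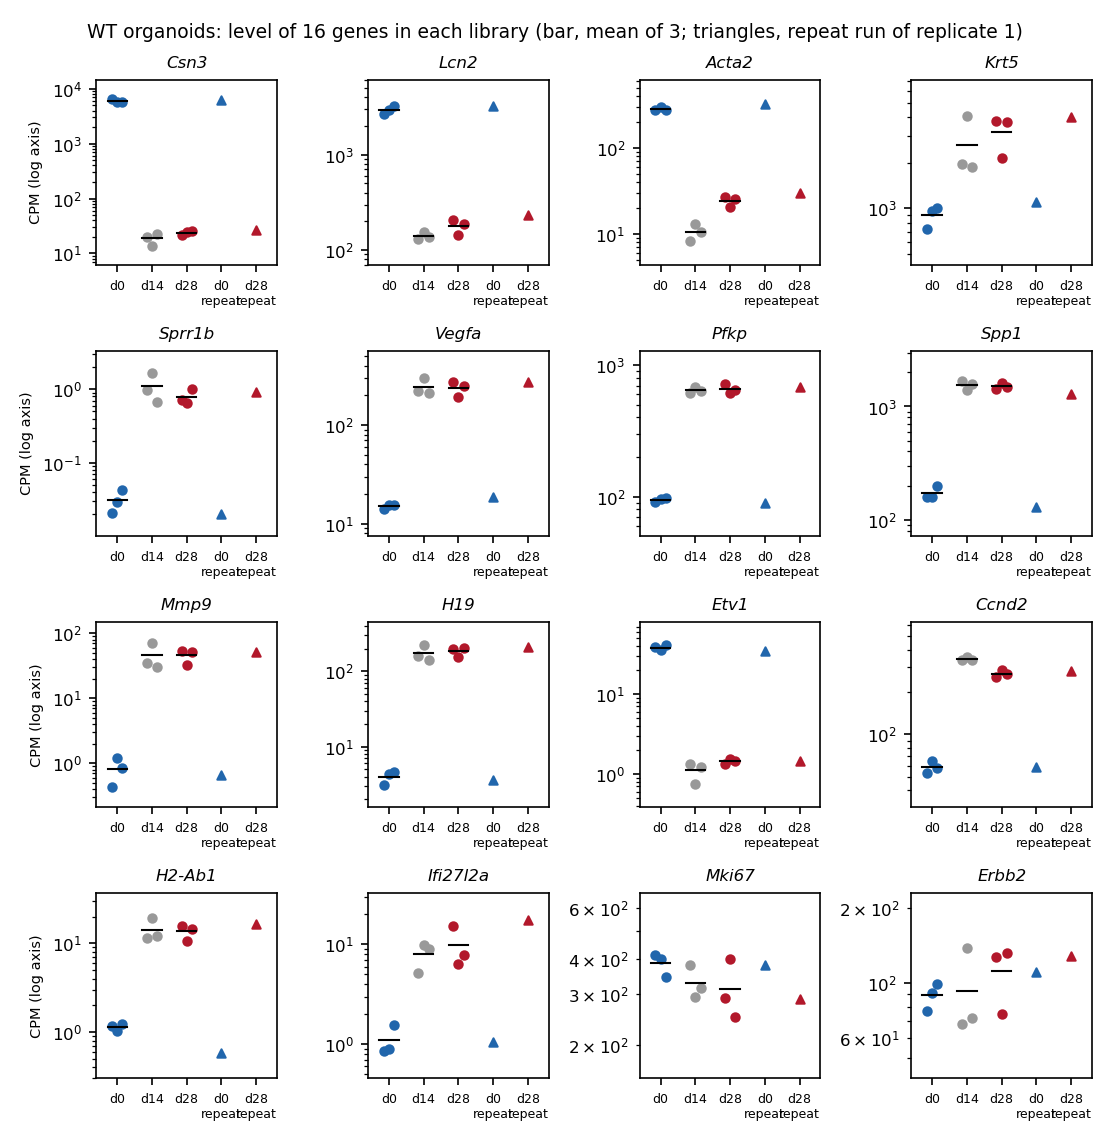
The level in CPM (log axis) of 16 genes is shown for each WT library at day 0 (blue), day 14 (grey) and day 28 (red), with a bar at the mean of 3 and triangles for the repeat runs of replicate 1. The day 0 and day 28 libraries do not overlap for the first 14 genes; Mki67 and Erbb2 overlap.

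Interferon-stimulated genes, many of which act against viruses, rose in 25 of 59 members and fell in 6, with a median of 0.53, against 12.3% and 12.4% of all genes. Ifi27l2a stood at 0.85, 0.906 and 1.58 CPM at day 0 and 15.2, 6.34 and 7.9 CPM at day 28 (3.13 ± 0.44, adjusted p = 2.76e-05). Oas3, an enzyme that makes the activator of RNase L, stood at 0.601, 0.672 and 1.37 CPM at day 0 and 5.72, 3.05 and 2.87 CPM at day 28 (2.12 ± 0.39, adjusted p = 0.000504). Mx1 (1.29), Isg15 (1.20), Oas1a (1.42) and the transducers Stat2 (0.68) and Irf9 (0.58) rose. Ifit2, an inhibitor of translation, fell (12.4, 9.59 and 11.6 CPM at day 0 and 4.25, 4.55 and 2.54 CPM at day 28), as did Rsad2 (-1.21), an antiviral enzyme. Epsti1 stood at 2.4, 2.25 and 2.08 CPM at day 0 and 0.577, 0.517 and 0.398 CPM at day 28. Ly6e, an abundant surface protein, stood at 2354, 2489 and 2533 CPM at day 0 and 1562, 1287 and 1545 CPM at day 28. The summed level of the list, Ly6e included, was 3967, 3943 and 4262 CPM at day 0 and 3960, 3494 and 3465 CPM at day 28. None of the 6 listed interferon genes (Ifnb1, Ifng, Ifnl2, Ifnl3, Ifnk and Ifne) passed the filter on low counts. In the Ifi200 family, DNA-binding proteins, 6 of 8 tested members rose and 0 fell. Ifi202b stood at 15.2, 13.8 and 14.1 CPM at day 0 and 40.6, 52.8 and 38.4 CPM at day 28. Ifi205 stood at 0.186, 0.205 and 0.337 CPM at day 0 and 2.45, 2.83 and 1.72 CPM at day 28. Ifi200 genes are near-identical in part, and how shared reads were counted is not given in the sources used here.

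Of 16 nucleic acid sensing genes 3 rose, Zbp1, Ikbke and Tmem173, and 0 fell, against 12.3% higher and 12.4% lower of all genes. Zbp1, a sensor of Z-form nucleic acid, stood at 9.35, 8.8 and 12.3 CPM at day 0 and 22.5, 19.6 and 17.1 CPM at day 28. Tmem173, the gene of STING, changed by 0.32 and lost its call without replicate 1 or 2 of day 0 or replicate 3 of day 28. Without replicate 2 of day 28, 4 sensing genes rose and 1 fell. MHC class I genes rose in 5 of 15 and fell in 0, with Tap1, the peptide transporter, at 30.8, 34.2 and 37.1 CPM at day 0 and 79.2, 49.2 and 69 CPM at day 28 and B2m at 0.60 on the log2 scale. The class I count was 8 without replicate 2 of day 28 and 3 without replicate 2 of day 0 or replicate 1 of day 28. Among 7 class II genes tested 4 rose. H2-Ab1, a class II beta chain, stood at 1.16, 1.02 and 1.24 CPM at day 0 and 15.8, 10.6 and 14.7 CPM at day 28 (3.58 ± 0.25, adjusted p = 9.03e-09). Cd74, the invariant chain, stood at 2.86, 2.69 and 2.1 CPM at day 0 and 11, 8.77 and 12.2 CPM at day 28 (2.06 ± 0.24, adjusted p = 3.06e-06). Ptprc, Itgam and Adgre1, defining markers of leucocytes and macrophages, were among the 7 of 13 macrophage and myeloid markers that did not pass the filter on low counts. The other 6 passed it, and 1 of them fell, Cd163. In which cells the class II genes rose was not tested.

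Promoter windows are printed for the 2 interferon-stimulated genes that rose the most among those with a window that holds the interferon response element. Of the 25 that rose, 14 had a window. The element, in capitals, was taken as GAAANNGAAA on both strands.
Oas3 (chr5:120777610-120777909, minus strand): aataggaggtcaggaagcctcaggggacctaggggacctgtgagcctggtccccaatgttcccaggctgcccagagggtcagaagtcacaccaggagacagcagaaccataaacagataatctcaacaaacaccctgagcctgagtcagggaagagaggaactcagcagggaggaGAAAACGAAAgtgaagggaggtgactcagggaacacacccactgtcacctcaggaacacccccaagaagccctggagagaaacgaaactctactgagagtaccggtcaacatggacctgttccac
Oas1a (chr5:120907476-120907775, minus strand): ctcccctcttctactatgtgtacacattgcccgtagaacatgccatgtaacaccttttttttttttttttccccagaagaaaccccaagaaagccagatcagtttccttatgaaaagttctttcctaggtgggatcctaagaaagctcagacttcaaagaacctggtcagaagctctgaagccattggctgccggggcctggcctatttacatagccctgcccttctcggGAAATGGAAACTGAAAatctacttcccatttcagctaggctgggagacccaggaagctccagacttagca
Oas1a holds 2 overlapping matches and Oas3 1. The element was in 2.99% of the windows of all tested genes and in 22 of 43 (51.2%) of the interferon list, 7 of 14 for its members that rose and 1 of 5 for those that fell. Over all genes that rose it was in 3.03% and over all that fell in 2.45%.

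Chemokines and cytokines moved both ways, 8 higher and 11 lower of 29. Cxcl14 fell (6.76, 6.28 and 7.53 CPM at day 0 and 0.415, 0.463 and 0.315 CPM at day 28), and so did Csf3, a growth factor for granulocytes (2.11, 2.63 and 2.78 CPM at day 0 and 0.484, 0.218 and 0.419 CPM at day 28). Il24 rose to 0.554, 0.762 and 0.734 CPM. Of 19 NF-kB genes 3 rose, 3 fell and 13 were not called, against 12.3% higher and 12.4% lower of all genes. Icam1 was among those that rose (43.8, 53.9 and 56.9 CPM at day 0 and 117, 79.3 and 118 CPM at day 28).

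S phase genes fell in 9 of 30, against 12.4% of all genes, and rose in 0, while 1 of 30 G2 and mitosis genes was called. Mki67, the proliferation marker, stood at 411, 399 and 345 CPM at day 0 and 291, 397 and 251 CPM at day 28 and was not called (-0.30 ± 0.17, adjusted p = 0.251). Without replicate 2 of day 28, which lies inside the day 0 range, its adjusted p was 0.0371. The G2 and mitosis gene called was Ccna2, which was lower (-0.40 ± 0.13, adjusted p = 0.0267). That call was lost without any one of 4 libraries (replicates 1 and 2 of day 0, replicates 1 and 3 of day 28), and 3 were called without replicate 2 of day 28. The 30 S phase genes had changes from -0.63 to -0.01. Pole, the catalytic subunit of DNA polymerase epsilon, stood at 54.5, 55.4 and 53.6 CPM at day 0 and 34.2, 33.4 and 37.8 CPM at day 28 (-0.63). Cdc6, a licensing factor of replication, stood at 21.4, 21.1 and 19.2 CPM at day 0 and 12.4, 13.6 and 14.1 CPM at day 28 (-0.62). The S phase count was 4 without replicate 1 of either day and 5 without replicate 3 of day 28. Ccnd2, a D cyclin, rose from 53.5, 65.3 and 57.5 CPM to 257, 285 and 267 CPM (2.20 ± 0.20, adjusted p = 2.2e-07), and Rb1 fell (-1.13).

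Break repair genes fell in 13 of 38 and rose in 2 (median -0.25), a total of 15 that was 9 without replicate 1 of day 28. Lig3 stood at 145, 139 and 139 CPM at day 0 and 83.5, 82.7 and 85.7 CPM at day 28 (-0.75 ± 0.08, adjusted p = 1.59e-06). Fanca, of the Fanconi core complex, stood at 25.9, 28.8 and 26.7 CPM at day 0 and 13.9, 10.2 and 13.5 CPM at day 28 (-1.11). Rad51b, a homologous recombination gene, rose (5.68, 5.84 and 5.34 CPM at day 0 and 11.4, 12.7 and 10.7 CPM at day 28). Mre11a stood at 58.2, 54.1 and 53 CPM at day 0 and 44.8, 52.1 and 43 CPM at day 28 and was not called (-0.24 ± 0.10, adjusted p = 0.104), but it was called without replicate 2 of day 28 (adjusted p = 0.0329). Of 17 genes of the Mre11 complex and ATM signalling 1 rose, Rbbp8, and 3 fell, Mdc1, Chek1 and Chek2; the call of Chek1 was lost without any one of replicates 1 and 2 of day 0 and 1 and 3 of day 28 (adjusted p from 0.0721 to 0.113). Of 30 p53 targets 5 rose, 3 fell (Gadd45a, Btg2 and Rrm2b) and 22 were not called, with a median of 0.11. Among all genes tested, 12.3% rose and 12.4% fell, the shares to compare with for this list and that of the Mre11 complex. Cdkn1a, the inhibitor p21, stood at 60.5, 65.9 and 64.9 CPM at day 0 and 166, 146 and 169 CPM at day 28 (1.33 ± 0.11, adjusted p = 7.71e-08). Pmaip1, the death activator NOXA, stood at 3.03, 4.12 and 3.2 CPM at day 0 and 14.7, 18.2 and 15.8 CPM at day 28 (2.24 ± 0.16, adjusted p = 1.07e-08). Perp, a desmosomal protein, stood at 289, 276 and 270.2 CPM at day 0 and 637, 717 and 612 CPM at day 28. Within the BCL2 family 4 rose and 4 fell of 18, and the total of 8 was 5 without replicate 3 of day 0.

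Of 19 tested genes of matrix proteases and their inhibitors, 9 rose and 5 fell. Mmp9, gelatinase B, stood at 0.435, 1.2 and 0.841 CPM at day 0 and 53.4, 32.9 and 52.3 CPM at day 28 (5.84 ± 0.46, adjusted p = 3.35e-08). Timp1, an inhibitor of these enzymes, stood at 16.9, 18.4 and 19.8 CPM at day 0 and 92.8, 80.8 and 89.6 CPM at day 28 (2.26 ± 0.11, adjusted p = 7.14e-11). Mmp3 (2.08), Mmp10 (2.06) and Mmp13 (2.05) rose too. Tight junction genes fell in 9 of 18 and rose in 1. Cldn1 stood at 111, 104 and 92.4 CPM at day 0 and 19.2, 21.1 and 16.3 CPM at day 28 (-2.44 ± 0.14, adjusted p = 6.47e-10). Ocln, occludin, fell by 0.53 on the log2 scale. Col17a1, the hemidesmosome collagen, rose (342, 415 and 429.6 CPM at day 0 and 1192, 752 and 1221 CPM at day 28). Lamb3, a laminin-332 chain, was called (0.93 ± 0.32, adjusted p = 0.0419) but not when any one of replicates 1, 2 and 3 of day 0 or 1 and 3 of day 28 was left out.

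Genes of epithelial-mesenchymal transition did not move as one. S100a4, a calcium-binding protein of motile cells, rose (1.91, 1.93 and 1.66 CPM at day 0 and 8.86, 10.4 and 10 CPM at day 28), as did Vim and Snai2. Fn1, fibronectin, fell (77.2, 127 and 135 CPM at day 0 and 11.3, 9.66 and 13 CPM at day 28), as did Twist1 and Cdh2. The list counted 7 higher and 3 lower of 19. Cadherin 19, Cdh19, had 1280 counts in the 3 day 0 libraries and 3 at day 28, a ratio of 419 with a 95% counting interval of 143 to 2036. Its level was 10.9, 8.94 and 9.4 CPM at day 0. Cdh1, E-cadherin, was not called (-0.15 ± 0.17, adjusted p = 0.617).

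Oncofetal genes, active in the embryo and in tumours, rose in 7 of 10 tested members and fell in 1. H19, an imprinted non-coding RNA (chromosome 7, 142575529 to 142578143), stood at 3.13, 4.35 and 4.61 CPM at day 0 and 197, 156 and 202 CPM at day 28 (5.52 ± 0.24, adjusted p = 1.8e-11). Hmga2, a chromatin protein of embryonic tissue, stood at 0.124, 0.234 and 0.105 CPM at day 0 and 10.7, 12.4 and 12.4 CPM at day 28 (6.30 ± 0.29, adjusted p = 3.83e-11). Igf2, the imprinted neighbour of H19, had 1 count at day 0 and 58 at day 28, a ratio of 59.0 with a counting interval of 10.2 to 2371. Hmga1 rose from 9.45, 12.9 and 12.5 CPM to 54.6, 24.9 and 56.8 CPM. Of the aldehyde dehydrogenases, which make retinoic acid among other products, Aldh1a3 fell (346, 381 and 374 CPM at day 0 and 86.7, 75.5 and 85 CPM at day 28). Aldh1a1 rose (18.1, 15.5 and 14.1 CPM at day 0 and 45, 54.1 and 45 CPM at day 28).

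Other large changes fell outside the groups described so far. Stmn2, a tubulin-binding protein known from neurons, stood at 0.104, 0.117 and 0.063 CPM at day 0 and 16.2, 16.5 and 16.9 CPM at day 28 (7.44 ± 0.26, adjusted p = 2.03e-12). Tmem178, a membrane protein of the endoplasmic reticulum, stood at 0.912, 0.877 and 0.883 CPM at day 0 and 35.1, 32.3 and 30.4 CPM at day 28. Pde3a, a cyclic nucleotide phosphodiesterase, stood at 2.26, 1.52 and 1.98 CPM at day 0 and 54.4, 63 and 55.5 CPM at day 28. Chad, a matrix protein of cartilage, went from 1.04, 0.877 and 1.45 CPM to 55.7, 33 and 57 CPM. Oprd1, the delta opioid receptor, had 1 count at day 0 and 628 at day 28, a ratio of 639 with a counting interval of 114 to 25280. Piezo2, a mechanically gated channel, was among the largest falls (12.9, 12.7 and 12.2 CPM at day 0 and 0.023, 0.054 and 0.168 CPM at day 28). Rtn1, a reticulon, fell (16.9, 18.1 and 17.2 CPM at day 0 and 0.369, 0.136 and 0.273 CPM at day 28), and so did Crispld2, a secreted protein (398, 446 and 532 CPM at day 0 and 5.72, 4 and 5.45 CPM at day 28). Among the largest gains in CPM, Postn, periostin, stood at 960.5, 881 and 958 CPM at day 0 and 2068, 2512 and 1854 CPM at day 28. Ctsd, the lysosomal protease cathepsin D, stood at 899.9, 1008 and 1088 CPM at day 0 and 1961, 1499 and 1953 CPM at day 28. Of the 4621 called genes, 4190 belong to none of the 56 lists.

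Markers of cells other than epithelium were mostly low. The fibroblast list summed to 1021, 951 and 1026 CPM at day 0 and 2144, 2568 and 1927 CPM at day 28, nearly all of it Postn. Of its 9 tested members 2 rose, Fbln1 and Postn, and 2 fell, Pdgfra and Pdgfrb, with a median of 0.54. The call of Pdgfrb was lost in 6 of 16 alternative fits. Pdgfra, a fibroblast receptor, stood at 35.1, 37 and 34.4 CPM at day 0 and 17.4, 19.2 and 16.9 CPM at day 28. Lum, Dpt, Thy1 and Mfap5 did not pass the filter. The macrophage list summed to 73.1, 70.9 and 66 CPM at day 0 and 29.8, 36.5 and 31.7 CPM at day 28. The lymphocyte list summed to 5.24, 5.82 and 4.94 CPM at day 0 and 3.76, 3.81 and 3.06 CPM at day 28. The endothelial list summed to 8, 7.92 and 8.56 CPM at day 0 and 11.9, 10.2 and 13.9 CPM at day 28. Called members of the macrophage, lymphocyte and endothelial lists were 1, 1 and 3. The 3 endothelial genes that rose were Kdr, Egfl7 and Pecam1, and the count was 0 to 1 without any one of replicates 2 and 3 of day 0 or 1 and 3 of day 28. Schwann cell and nerve markers fell in 7 of 11, among them Sox10, Cdh19 and S100b (-1.65), some of which mammary epithelium also expresses. Their list summed to 438, 488 and 511 CPM at day 0 and 290.2, 254 and 292 CPM at day 28. Against 24.7% of all genes called, 1 of 3 adipocyte markers tested was called, Pparg, which fell. Of 10 lung epithelial markers 1 rose, Hopx, and 2 fell, and 5 were called without replicate 2 of day 0. Of 5 muscle and red cell markers 2 rose, Myh1 and Mylpf, and 2 fell, Acta1 and Alas2. The part of such cells in the results was not tested. Lyz2, a myeloid and lung gene, stood at 4.71, 9 and 4.23 CPM at day 0 and 5.26, 8.71 and 5.66 CPM at day 28 but at 0.039 and 0.02 CPM in the repeat runs of replicate 1.

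The share of genes called varied with the length of the gene on the genome. Among the 141 tested genes over 500 kb, 53 fell (37.6%) and 24 rose (17.0%), against 8.07% and 10.4% of the 7090 genes under 10 kb. The median change ran from 0.06 in the shortest class to -0.23 in the longest. By GC content, the fifth with the highest had 14.3% higher and 8.67% lower, and the fifth with the lowest 8.51% and 10.3%. Among the day 28 libraries, GC-rich genes ran high in replicates 1 and 3, as these shares do, and low in replicate 2, against them. With GC offsets 2891 genes rose and 3222 fell. Long intergenic non-coding RNAs fell (16.7%) more often than they rose (11.6%), while protein-coding genes did so equally (13.9% and 13.9%).

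**Figure D4:**
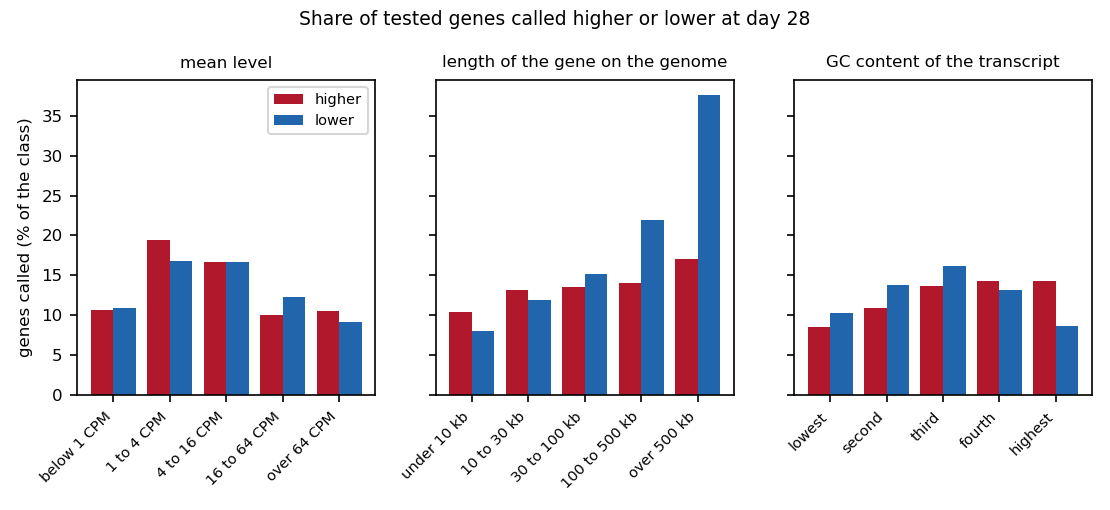
Bars give the percentage of tested genes that rose (red) or fell (blue) at day 28, by mean level (left), by length of the gene on the genome (middle) and by GC content of the transcript (right). The blue bar of genes over 500 kb reaches 37.6%, and that of genes under 10 kb 8.07%.

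Day 14 gives a view of the time between. Csn3 averaged 18.8 ± 4.80 CPM at day 14 (SD, n = 3), Etv1 1.11 ± 0.32, Vegfa 244 ± 49.5 and H19 176 ± 44.6. For these 4 genes the day 14 mean is nearer to day 28 than to day 0. Acta2 was at 10.6 ± 2.33 CPM at day 14, below its day 28 values of 26.4, 20.1 and 25.2 CPM.

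Mre11a, the mutated gene, stood in ATLD organoids at 14.9, 13.9 and 15.3 CPM at day 0 and 14.8, 16.4 and 14.7 CPM at day 28, below every WT library of those days. This level bears on the genotype labels and not on the day labels of the ATLD libraries, so the directions given for ATLD rest on the latter as deposited. The difference between the 2 genotypes in the day 28 change was called for 5134 of 18684 genes (27.5%), 2621 with the WT change the more positive and 2513 with it the more negative. Of the genes called in WT, 2983 (64.6%) also differed. The difference contains the WT change by which these genes were selected, so this share cannot be compared with the 27.5%. Csn3 in ATLD stood at 3945, 4934 and 5670 CPM at day 0 and 12370, 11100 and 9278 CPM at day 28, where WT fell (difference -9.17 ± 0.30, adjusted p = 2.62e-12). Lcn2 in ATLD stood at 4481, 5807 and 5660 CPM at day 0 and 13410, 12360 and 11200 CPM at day 28. Crispld2 stood at 534, 431 and 488 CPM at day 0 and 800.2, 828 and 1057 CPM at day 28. Both were higher at day 28 there. Vegfa in ATLD stood at 29.8, 25.7 and 24.9 CPM at day 0 and 25.2, 23.2 and 25.5 CPM at day 28 (difference 4.10 ± 0.21, adjusted p = 1.91e-10), without the WT rise. Hmga2 stood at 4.18, 3.04 and 2.79 CPM at day 0 and 0.701, 1.24 and 1.03 CPM at day 28, and Stmn2 at 5.55, 3.8 and 5.54 CPM at day 0 and 1.02, 1.24 and 0.887 CPM at day 28, both lower at day 28. Krt5 in ATLD was at 1665, 1493 and 1708 CPM at day 0 and 826, 739.6 and 806 CPM at day 28. Chad in ATLD stood at 1.39, 1.66 and 1.53 CPM at day 0 and 56.1, 39.4 and 50.8 CPM at day 28, and a difference was not shown for it (0.42 ± 0.40, adjusted p = 0.493).

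For cell cycle genes the difference was called and positive for 30 of 30 G2 and mitosis genes and for 28 of 30 S phase genes. Mki67 in ATLD stood at 446, 330.5 and 380.0 CPM at day 0 and 89.6, 102 and 94 CPM at day 28 (difference 1.72 ± 0.25, adjusted p = 3.55e-05). Of luminal progenitor markers, 17 of 20 differed with WT the more negative, and of hypoxia targets 14 differed with WT the more positive and 1 the other way. The original WT libraries and the ATLD libraries were sequenced in separate batches. The genotype difference was called for 5094 genes with the repeat runs in place of the originals of WT replicate 1, and for 6031 with all 21 libraries and a batch term. The repeat runs of WT replicate 1, which were in the ATLD batch, give 6245 and 26.6 CPM of Csn3 and 378 and 289 CPM of Mki67.

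**Figure D5:**
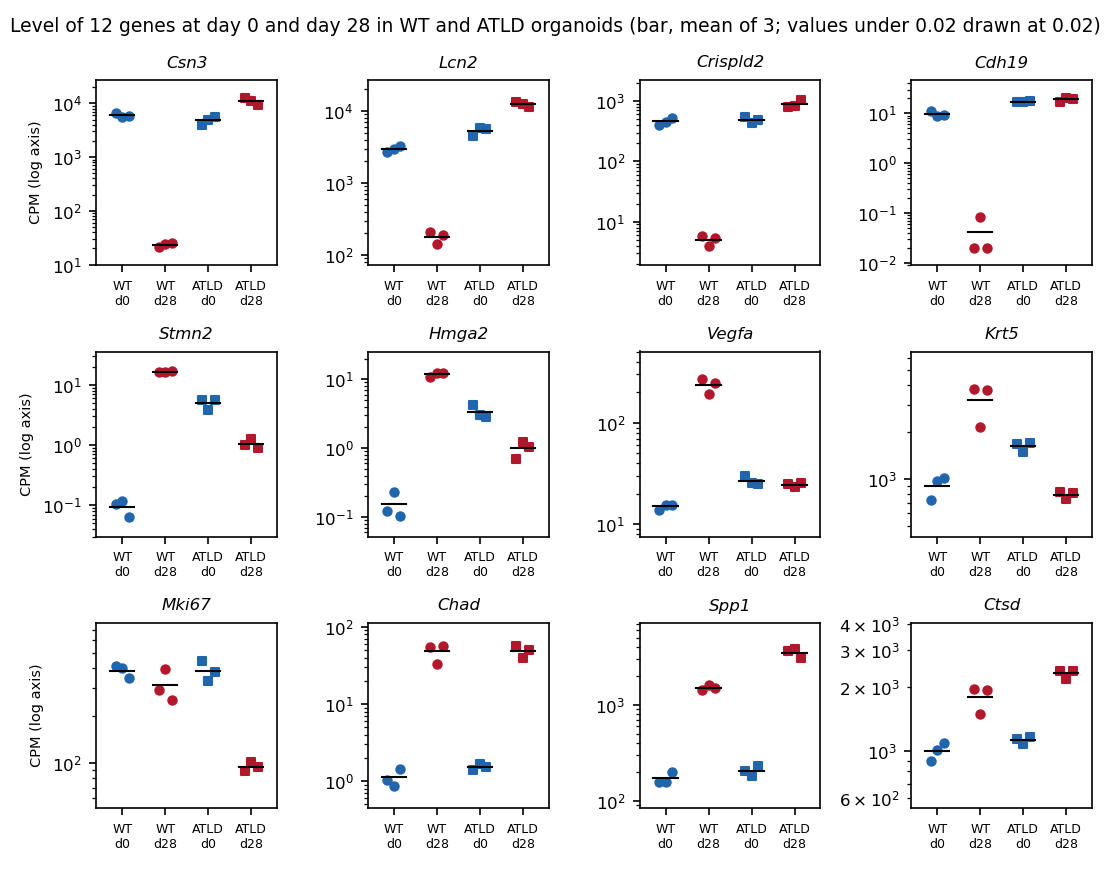
The level in CPM (log axis) of 12 genes is shown for each WT (circles) and ATLD (squares) library at day 0 (blue) and day 28 (red), with a bar at the mean of 3 and values under 0.02 drawn at 0.02. Csn3 is low at day 28 in WT and highest at day 28 in ATLD, while Chad is near the same level in both genotypes at each day.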

How the data were processed

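The values are the raw counts that the authors deposited, one per library for each of 55536 Ensembl IDs and not normalized. The submitters' processing notes name featureCounts, DESeq2 and mm10. Per the labels' protocols the libraries were stranded TruSeq preparations of polyadenylated RNA. Which aligner, strand setting and annotation were used is not given in the sources used here. All IDs matched GENCODE vM21 in start and end. The members and the gene lists were chosen with earlier results of these data known.

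Counts were fitted with edgeR 4.0.16 (R 4.3.3): filterByExpr with a minimum count of 10 and a total of 15, TMM scaling, quasi-likelihood F tests (two-sided) and a prior count of 0.125 for fold changes. One fit of 18 libraries, the repeat runs left out (18684 genes, residual degrees of freedom 12), gave both the WT day 28 contrast and the genotype difference. Counts are summed over the 3 libraries of a day where intervals (95%, exact) are given. Named genes are Erbb2 and Mre11a, the 12 largest rises and 12 largest falls, the 8 rises and 8 falls with the largest CPM difference, up to 4 called members per list, and the 5 and 5 largest genotype differences. Of the largest changes, only called genes with separate ranges, no predicted symbol and 1 or more in mean log2 CPM counted. Other list members were named after their values were seen, for their known role. The fits were tested on simulated data with known changes. Counts were drawn from edgeR's own fitted spreads, with no GC deviation of a library, and only a small set of genes above 1 CPM was changed. In the data 24.7% of genes were called and 5185 tested genes lay below 1 CPM, so the rates need not hold for them. For the WT contrast edgeR recovered 78% of 2-fold and 100% of 4-fold changes, with 4.3% of its calls false. For the genotype difference it recovered 42% and 93%, with 7.53% of its calls false, above the 5% aimed at. DESeq2 had 13.36% false calls for the WT contrast and 19.27% for the genotype difference.

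Replicates differed beyond sampling noise and none was a repeated deposit. Alternatives were median-of-ratios factors, no filter, DESeq2 1.42.0, a replicate block, GC offsets, the repeat runs replacing the originals, a batch term over all 21 libraries, fits of fewer libraries, and leaving out each library. Some genes are counted in their lists but not reported by name here.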

Additional observations from a re-analysis of the deposited data

Results flagged for a closer look

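The change at day 28 differed between WT and ATLD organoids for 5134 genes, by edgeR's test of the difference itself. Taking the 5 largest called differences each way on the log2 scale, among genes with a symbol that is no clone name and a log2 mean level of at least 1 (CPM) over the WT and ATLD libraries of both days, the WT change was the more positive for Stra6 (10.67), a retinol-binding protein receptor, Stmn2 (9.68), Ndufa4l2 (8.83), Hmga2 (8.05) and Stfa3 (6.82), a stefin. It was the more negative for Csn3 (-9.17), Cdh19 (-8.69), A2m (-7.89), Ankrd1 (-7.65) and Crispld2 (-7.38). Stra6 was 0.062, 0.234 and 0.189 CPM at day 0 and 3.25, 1.93 and 3.96 CPM at day 28 in WT, against 8.24, 6.13 and 6.85 CPM at day 0 and 0.068, 0.147 and 0.023 CPM at day 28 in ATLD. A2m, alpha-2-macroglobulin, was 0.373, 0.263 and 0.294 CPM and 0.046, 0.027 and 0.021 CPM in WT, and 1.22, 0.917 and 0.742 CPM at day 0 and 21.1, 22.1 and 30.6 CPM at day 28 in ATLD. WT and ATLD libraries were sequenced in separate batches. With the repeat runs of WT replicate 1, made in the ATLD batch, in place of the originals the difference was called for 5094 genes, and with all 21 libraries and a batch term for 6031.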

How the results depend on the processing

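The count of genes called at day 28, 4621, was 3716 with a replicate block, 6113 with GC offsets and 5997 with all libraries and a batch term, and 4364 to 5249 under the other 7 alternatives that leave out no replicate; leaving out one library gave 3733 to 4508. Fits added after the data were seen moved it: the 6 libraries alone without replicate 2 of day 28 gave 8400, and the 6 alone with GC offsets gave 8260. The count of list members called, 465, ranged from 395 to 546 and was 398 with the block; leaving out one library gave 395 to 462. Of 223 named genes 210 were called, 191 to 210 under the alternatives, 194 with the block; leaving out one library gave 191 to 204. No named gene reversed, 185 of the 210 stayed called throughout, and 22 were lost in 3 or more. The genotype difference, 5134, was 4020 with the block and 6816 with GC offsets; leaving out one library gave 4375 to 4888. Same-numbered libraries deviated with correlations of -0.31, -0.14 and 0.19, so the numbers were not taken to pair them. Of the 4621 calls, 4549 were shared in direction with the fit with GC offsets and 3705 with that with the block. Depth limits what can be said of genes below 1 CPM, where a handful of reads sets the value.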
